A study of Mus musculus with 24 samples.

Results

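The JygMC(A)-GFP/Luc line is a mouse mammary carcinoma line used as a model of triple-negative breast cancer. Its cells carry a firefly luciferase and eGFP fusion that was brought in by lentivirus, and expressing cells were enriched with Geneticin and by sorting. Cells of this single line were grown either attached, as a monolayer in plates, or in suspension, as 3D spheres of the third generation on plates of ultra-low adherence. Of the 24 samples of the series, the 4 samples titled as cell line or 3D sphere cell line were compared here, 2 monolayer and 2 sphere cultures, each numbered in its title as biological replicate 1 or 2. The titles do not say how separately the replicates were grown, so p-values speak for these samples and not for other cultures of the line. Total RNA of each culture was read in a lane of the nCounter mouse miRNA assay, which counts barcoded probes, with 566 probes for mouse miRNAs. The comparison asks which miRNAs differ when the same tumor cells grow as spheres, a culture form that favors cells able to renew themselves without attachment.

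MicroRNAs are short RNAs that repress messenger RNAs by pairing through a seed near their 5′ end, so miRNAs with the same seed share many targets. The let-7 family holds back growth and stem cell programs in differentiated cells, the miR-200 family maintains epithelial cells, and the miR-290 and miR-302 clusters mark embryonic stem cells. The miR-15 and miR-16 family slows the cell cycle. Other entries in older miRNA catalogues were later recognised as pieces of transfer RNA or ribosomal RNA, and probes for them report those fragments.

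The deposited values behave as counts from which a background close to the mean negative control of the lane had been taken off, so a probe without signal lies near 0 and can be negative. The mouse miRNA values of a lane summed to 46507 and 26420 in monolayer replicates 1 and 2, and to 38689 and 33419 in sphere replicates 1 and 2. These sums were lower than in any of the other 20 samples, where they ran from 62583 to 2335745. Detection in a lane required a value over that lane's limit, set at 2 SD over the mean of its 6 negative controls, which came to 21.4, 16.9, 19.5 and 11.1 in the same order. By this limit, 104 and 126 miRNAs were detected in the monolayer lanes and 108 and 119 in the sphere lanes, against 135 to 368 in the other samples. The positive control of highest concentration read 9328, 8481, 8818 and 7950, and these values overlapped between the sides. Mouse miRNAs above the limit in both replicates of at least 1 side are called detected from here on. Of them, 94 were above it in both sphere cultures and another 13 in both monolayer cultures but not in both spheres, with 66 above it in all 4.

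The monolayer replicates stood apart from each other. For comparison, lanes were brought to a common scale with TMM factors, a trimmed mean of log ratios, and log2(value + 1) was used. Across the detected miRNAs, which are not independent replicates, the correlation of these log2 values was 0.97 between the sphere replicates and 0.62 between the monolayer replicates. Monolayer replicate 2 correlated with the spheres at 0.74 and 0.72, and monolayer replicate 1 at 0.53 and 0.52. On the log2 scale, 36 of these miRNAs were more than 1 higher in monolayer replicate 1 than in replicate 2 and 17 were more than 1 lower, while 5 differed by more than 1 between the sphere replicates. The sphere replicates differed by 2.08 times the variance that counting alone gives, over 94 miRNAs, against 125 times for the monolayer replicates over 79. Variation between lanes would also raise this ratio above that of counting, so it does not show how separate the sphere cultures were, and they were counted as 2 samples because their titles number them so. For 31 of the detected miRNAs both sphere values lay between those of the monolayer cultures. The labels describe both monolayer cultures alike, and whether they differed in kind of culture or in RNA preparation was not tested. A fold change against their mean describes neither culture alone, so culture values stand before the results.

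**Figure D1:**
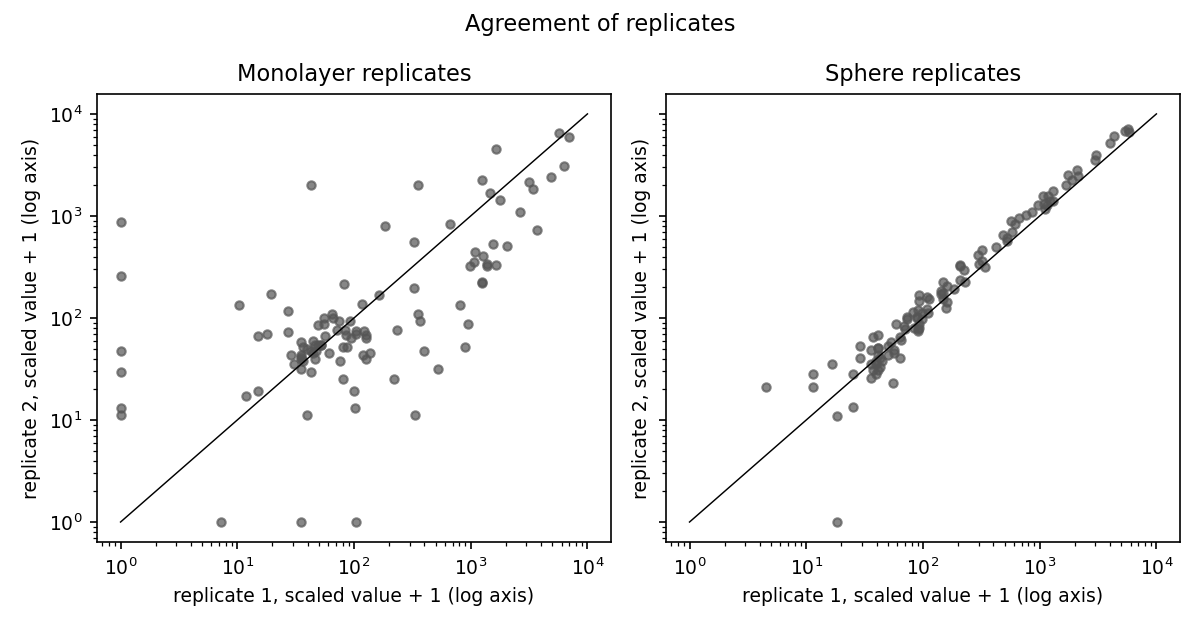
Scaled values plus 1 of the detected miRNAs in replicate 2 against replicate 1, on log axes, for the monolayer cultures (left) and the sphere cultures (right), with the line of equal values; points at 1 are values at or below 0. The monolayer points scatter widely (correlation of log2 values 0.62) and the sphere points lie along the line (0.97).

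The 4 mRNA control probes in the lanes differed in how they divided the cultures. The Actb value, for the cytoskeletal beta-actin mRNA, was 3462 in monolayer replicate 1, 971 in monolayer replicate 2, and 719 and 709 in the spheres. Values of Gapdh, a glycolysis enzyme, were 290 and 188 against 109 and 109, and those of B2m, a part of MHC class I, after lane scaling were 388 and 336 against 185 and 265. Rpl19, a ribosomal protein mRNA, read 1594 and 2322 against 1682 and 1490. Actb, Gapdh and B2m were lower in both spheres than in both monolayer cultures, and Rpl19 overlapped. An exact two-sided permutation test of 2 against 2 cannot give a p below 0.333, which was its value for Actb, Gapdh and B2m. The ratio of Actb to Rpl19 within a lane was 2.17 in monolayer replicate 1, 0.42 in monolayer replicate 2, and 0.43 and 0.48 in the spheres, so by this ratio monolayer replicate 2 lay beside the spheres.

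Of the markers of cell types that a pure tumor cell culture should lack, the erythroid and endothelial ones were near or below 0, while single leukocyte and muscle probes were above the limit in all 4 cultures. The erythroid miRNAs miR-144, miR-451 and miR-486 were under the limit in all 4 cultures, with sums of 9, 6, 0 and 2 (negative values taken as 0), and the endothelial miR-126 probes were below 0. Among leukocyte markers, miR-223 was between -12 and 1 and miR-142-3p between 2 and 14. The miR-150 probe read 13, 17, 17 and 8, above the limit in monolayer replicate 2 alone. The miR-142-5p probe read 45, 37, 51 and 30, but in the other 20 samples it also stayed between 27 and 56, where miR-142-3p ran from 72 to 24935, so this probe did not follow its partner strand. The muscle miRNA miR-206 read 47, 45, 52 and 32, with miR-1 and miR-208a below 0 in all 4. The muscle miR-133b probe read 11, 23, 9 and 8, above the limit in monolayer replicate 2 alone. Those of miR-133a, with 9, 15, 15 and 9, and miR-208b, with 5, -6, -5 and -2, were under it throughout. Epithelial markers were also low: 2 of 7, miR-203 and miR-205, passed the limit in a culture, the sums were 62, 55, 48 and 22, and miR-141 and miR-429 were below 0 in every culture. The absence of signal for the miR-200 family was thus shared by monolayer and spheres. Of the stromal and mesenchymal markers, miR-145 was the most abundant, with values of 819, 198, 244 and 199. The miR-10b values were 65, 6, 24 and 13 and those of miR-143 were 64, -7, 1 and -1, while miR-199a and miR-10a were at or below 0. Summed, these 7 markers read 951, 214, 284 and 220, highest in monolayer replicate 1, and their part in the differences between the cultures was not tested.

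With limma on log2(scaled value + 1) in a fit of all 24 samples, 17 mouse miRNAs were called higher and 9 lower in the spheres at an adjusted p under 0.05. The adjustment covered 583 mouse and viral probes with a value above 0 in any sample. Of these, 2.92% were called higher and 1.72% lower, the latter including a viral probe. Detection in both replicates of a side held for 14 of the miRNAs called higher and 3 of those called lower, and the cultures of these 17 did not overlap in either deposited or scaled values. Over all 583 probes, both spheres lay above both monolayer cultures in scaled value for 8.58% and below them for 14.6%. No mouse miRNA passed the same threshold when the 4 cultures were fitted alone with limma, where 20 mouse miRNAs had an unadjusted p under 0.05, so the calls rest on the spread pooled from the tumor and tissue samples. On simulated data the same procedure also called unchanged probes, more often than the threshold allows, so some of the calls may be false. Of the 14 detected miRNAs called higher, 9 were still called without monolayer replicate 1 and 12 without monolayer replicate 2, and of the 3 called lower, 1 and 2. Of all 17 together, 9 were still called when sphere replicate 1 was left out and 7 when sphere replicate 2 was. The median log2 fold change over all probes tested was 0 under each of the 5 scalings. That of the detected miRNAs was 0.15, and -0.10 to 0.83 under the other scalings. These also moved the balance of calls, with 18 higher and 19 lower when scaled by the 100 most abundant miRNAs, 16 and 22 by the miRNA sum, 7 and 1 without scaling, and 9 and 0 by the mRNA controls.

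**Figure D2:**
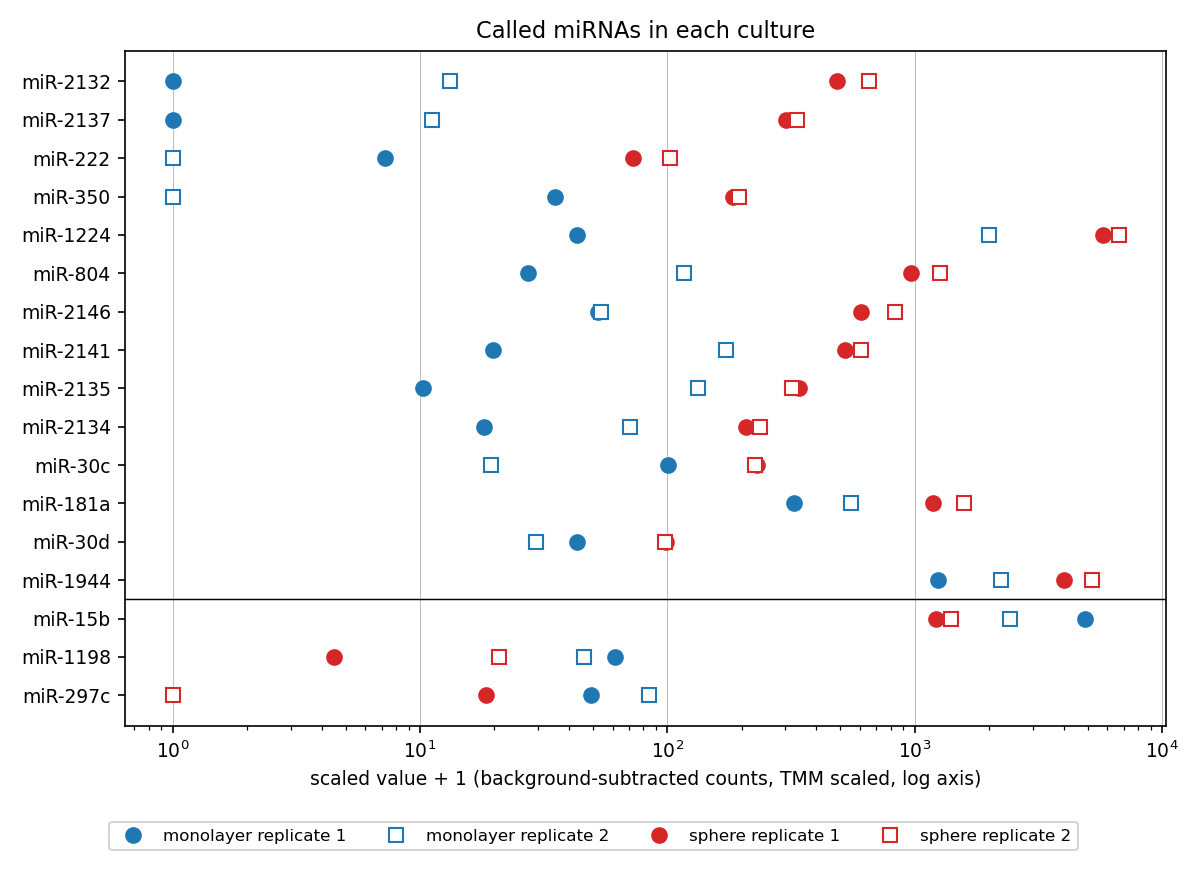
Scaled value plus 1 on a log axis for the 17 called and detected miRNAs in each of the 4 cultures, with blue for monolayer, red for spheres, circles for replicate 1 and open squares for replicate 2; points at 1 are values at or below 0. The 14 miRNAs above the line were called higher in the spheres and the 3 below it lower, and the red points do not overlap the blue ones in any row.

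The list with the most calls was that of short RNA entries later tied to transfer or ribosomal RNA, although most of its probes were not called. Its members were set by name, and the origin of their signal was not tested. Among them, miR-2137 has an entry as a miRNA in RefSeq. Over all 583 probes tested, 2.92% were called higher and 1.72% lower, but most of these probes were not detected in the cultures. Among the detected miRNAs, 14 were called higher and 3 lower. Of the 21 fragment probes on the panel, 6 were called higher, 0 lower and 15 not called, and 16 were detected. Their median log2 fold change was 1.53 (1.27 to 2.22 over the 5 scalings), beside 0 over all probes tested. It was 1.26 with miRNAs under the limit on a side placed at their bound, and 0.28 without monolayer replicate 1. For all detected miRNAs the median was 0.15 (-0.10 to 0.83 under the other scalings). Summed over the list, the deposited values were 1585 and 4544 in the monolayer cultures and 7151 and 6379 in the spheres, or 3.41%, 17.2%, 18.5% and 19.1% of the mouse miRNA sum of the lane. As a share of the lane, monolayer replicate 2 was thus close to the spheres, and it was monolayer replicate 1 that stood low.

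Within this group, miR-2132 read -3 and 6 in monolayer replicates 1 and 2 and 279 and 264 in sphere replicates 1 and 2. The miR-2137 probe read -5 and 5 against 173 and 135. Both were under the limit in each monolayer culture and clearly above it in each sphere culture. Taking each monolayer lane at its limit, the spheres were at least 16.2-fold higher for miR-2132 and at least 9.16-fold higher for miR-2137. The limma adjusted p was 9.71e-06 and 5.4e-05 in turn, which belongs to the fitted difference and does not test the bound. The values of miR-2146 were 33 and 26 against 349 and 334, so that here the monolayer replicates lay close together. Its log2 fold change was 3.74 (standard error 0.56), and it was 3.72 and 3.77 without monolayer replicate 1 or 2. These 3 probes were called under each of the 5 scalings.

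For miR-2134, miR-2135 and miR-2141 the monolayer cultures differed. The miR-2141 probe read 12 in monolayer replicate 1, 84 in monolayer replicate 2, and 300 and 245 in the spheres. The miR-2135 probe read 6, 65, 195 and 128, and the miR-2134 probe read 11, 34, 119 and 95 in the same order. In each case monolayer replicate 1 was under its limit, monolayer replicate 2 lay between it and the spheres, and the sides did not overlap. Their log2 fold changes were 3.28, 3.15 and 2.64, with standard errors of 0.85, 0.85 and 0.64. Without monolayer replicate 1 these fell to 1.71, 1.30 and 1.66 and the calls were lost (limma adjusted p = 0.404, 0.595 and 0.245). The calls of all 3 were also lost without scaling, with the mRNA controls and without either sphere replicate. There miR-2134 was 2.39 to 3.28 higher, miR-2135 2.89 to 3.77 and miR-2141 3.03 to 3.93. With cultures and tumors alone in the fit, miR-2135 and miR-2141 were not called, and miR-2135 was also not called with the miRNA sum or with the higher background, in which the limit of each lane was subtracted.

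For other members of the list, monolayer replicate 2 lay nearer to the spheres than to monolayer replicate 1. The miR-2140 probe read 0, 428, 491 and 444, and miR-2133 read -8, 125, 185 and 188. The tRNA-derived miR-1937a and miR-1937b probe read 227, 985, 1199 and 1141, and miR-1937c read 117, 392, 379 and 381. The tRNA fragment miR-720, the third most abundant probe of the cultures, read 1063, 2199, 3271 and 2840. None of these 5 was called, with limma adjusted p between 0.117 and 0.297, and for all 5 the lowest value was that of monolayer replicate 1. Without monolayer replicate 2 each was called higher, and with detected miRNAs alone in the fit so were miR-720, miR-2140 and the joint miR-1937a and miR-1937b probe. With the replicate number as a block in the fit, miR-2140 and this joint probe were also called higher. Against this direction, miR-1959 read 42 and 49 in the monolayer cultures against 23 and 20 in the spheres (log2 fold change -0.84, standard error 0.58, not called).

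The miRNA with the highest level among those called was miR-1224, which is cut from a short spliced intron. Its deposited value was 27 in monolayer replicate 1, 977 in monolayer replicate 2, and 3317 and 2702 in the spheres, where it was among the most abundant probes. It was 4.41 higher on the log2 scale (standard error 1.0, adjusted p = 0.0108), but the monolayer cultures were further apart than monolayer replicate 2 and the spheres. Without monolayer replicate 1 it was 1.64 and not called (limma adjusted p = 0.189), and without monolayer replicate 2 it was 7.18. The call was also lost without sphere replicate 1 or 2, where the difference was 4.52 and 4.30. The miR-1944 probe, with 797 and 1100 in the monolayer cultures against 2298 and 2099 in the spheres, had closer monolayer replicates. It was 1.45 higher on the log2 scale (standard error 0.31, adjusted p = 0.0082), and was not called without scaling (1.23) or with the mRNA controls (2.15). Without monolayer replicate 1 it was 1.02 and not called (limma adjusted p = 0.0712), and without sphere replicate 2 it was 1.26 and not called (limma adjusted p = 0.109).

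The miR-804 probe read 17 and 57 in the monolayer cultures against 552 and 512 in the spheres. The spheres were 4.29 higher on the log2 scale (standard error 0.66, adjusted p = 0.00025), and it was called without each monolayer replicate in turn and under all 5 scalings. The value of miR-350 was 22 in monolayer replicate 1 and -7 in monolayer replicate 2, against 105 and 78 in the spheres. Here the lower monolayer culture was replicate 2, and the difference was 4.99 on the log2 scale (standard error 0.88, adjusted p = 0.00137), or 2.43 without monolayer replicate 2. Since monolayer replicate 2 was below 0, this size depended on the pseudocount, and it was 3.24 with a pseudocount of 10. Both spheres were above the limit for both miRNAs. Monolayer replicate 1 was under its limit for miR-804, whose difference was 4.04 with a pseudocount of 10. The monolayer values of miR-350 were close to the limit or below.

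The miR-221 and miR-222 genes, whose products lower the cell cycle inhibitor p27, lie next to each other and share a seed. The miR-222 probe read 4 and -3 in the monolayer cultures against 41 and 41 in the spheres. It was under the limit in both monolayer cultures and above it in both spheres, at least 2.48-fold higher (limma adjusted p of the fitted difference = 0.00315). The call was lost when the limit itself was subtracted as background. Its neighbor miR-221 read 237 and 45 against 118 and 132, so the spheres lay between the monolayer cultures (log2 fold change 0.49, standard error 0.71, not called). Of the 2 members, 1 was called higher, and the median log2 fold change was 2.75, or 0.90 with miR-222 at its bound. The median was 0 over all probes and 0.15 over the detected miRNAs. That of the 2 members was 3.96 without monolayer replicate 1 and 1.54 without replicate 2. On GRCm38.p6 the hairpins are 504 bases apart on the minus strand of chromosome X, miR-221 at chrX:19146294-19146388 and miR-222 at chrX:19146893-19146971. The mature sequences from RefSeq are shown to set the shared seed, bases 2 to 8 in capitals, beside the bases in which they differ.
miR-222: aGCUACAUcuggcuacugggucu
miR-221: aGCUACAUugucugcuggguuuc

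The miR-30 family, abundant in differentiated epithelia, had 2 of its 5 members called higher and 3 not called. Its median log2 fold change was 0.69 (0.43 to 1.36 over the 5 scalings, 0.89 to 1.08 with a culture left out). The median was 0 over all probes and 0.15 over the detected miRNAs (-0.10 to 0.83 under the other scalings), and 4 of the members were detected. The miR-30c probe read 64 and 9 in the monolayer cultures against 132 and 91 in the spheres. The miR-30d probe read 27 and 14 against 56 and 39. Both were higher in each sphere than in each monolayer culture, by 2.38 (standard error 0.54, adjusted p = 0.0108) and 1.46 (standard error 0.39, adjusted p = 0.0309) on the log2 scale. Monolayer replicate 2 was under its limit for both miRNAs. Without this culture they were 1.19 higher each and not called. Without monolayer replicate 1, against a single culture under its limit, they were 3.56 and 1.73 higher. The miR-30a values were 51, 25, 51 and 48 and those of miR-30b 35, 48, 48 and 32, with no call for either. Both calls were lost without scaling, with the mRNA controls and without either sphere replicate, and that of miR-30d also with a pseudocount of 10. In these fits miR-30c was 2.12 to 3.04 higher and miR-30d 1.22 to 2.12 higher.

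In the miR-181 family, known for roles in lymphocyte signaling and in stem-like liver tumor cells, miR-181a was the member with signal. It read 209 and 270 in the monolayer cultures against 679 and 636 in the spheres. Both spheres lay above both monolayer cultures, and the difference was 1.69 on the log2 scale (standard error 0.35, adjusted p = 0.00522). It was 1.31 without monolayer replicate 1 and 2.07 without replicate 2, called in both cases. It was not called without sphere replicate 2 (1.48), without scaling (1.46) or with the mRNA controls (2.38). The family had 1 of 3 probes called higher and a median of 0.32, which ran from 0.07 to 0.97 over the scalings and from 0.07 to 0.69 with a culture left out. Sequences of miR-30 and miR-181a and of 5 other called miRNAs are shown next, to set their seeds beside each other, and no seed is shared between different families among those shown.
miR-30c: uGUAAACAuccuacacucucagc
miR-30a: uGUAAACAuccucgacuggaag
miR-181a: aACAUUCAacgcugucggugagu
miR-350: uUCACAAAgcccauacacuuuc
miR-804: uGUGAGUUguuccucaccugga
miR-1224: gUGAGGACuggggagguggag
miR-2137: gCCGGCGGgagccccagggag
miR-1198: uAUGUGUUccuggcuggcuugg

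On GRCm38.p6 the mature miR-1224 lies at chr16:20604452-20604472 (plus strand) within the span of Vwa5b2, miR-804 at chr11:50357799-50357820 (minus) within Cby3, miR-350 at chr1:176772342-176772363 (minus) within Cep170 and miR-2137 at chrX:72992113-72992133 (plus) within Zfp185. The miR-30c sequence has copies at chr1:23291714-23291736 on the plus strand and, within Nfyc, at chr4:120769584-120769606 on the minus strand. The miR-181a sequence has copies at chr1:137966468-137966490 and, within Nr6a1, at chr2:38852741-38852763, both on the plus strand, and the probe cannot tell copies apart.

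The most abundant miRNA among those called lower was miR-15b, of the miR-15/16 family. Its deposited value was 3152 in monolayer replicate 1, 1190 in monolayer replicate 2, and 700 and 563 in the spheres. Both spheres lay below both monolayer cultures, with a difference of -1.40 on the log2 scale (standard error 0.39, adjusted p = 0.0369). Without monolayer replicate 1 it was -0.89 and not called (limma adjusted p = 0.344), and without replicate 2 it was -1.91. The call was lost without scaling (-1.62), with the mRNA controls (-0.71) and without sphere replicate 1 or 2 (-1.30 and -1.50). The direction held under all 5 scalings.

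Its family members miR-16 and miR-15a had another pattern. The miR-16 probe read 606 in monolayer replicate 1 and 42, 41 and 39 in monolayer replicate 2 and the spheres. The miR-15a probe read 340 and then 15, 22 and 15. Monolayer replicate 2 and the spheres were alike for both, and monolayer replicate 1 stood far above them, and neither was called (log2 fold change -1.76 and -1.74, limma adjusted p = 0.131 and 0.226). The miR-16 probe was called lower with the 100 most abundant miRNAs or the miRNA sum as scaling, with detected miRNAs alone and with the replicate block, and both were without monolayer replicate 2. Of the 7 family probes, 1 was called lower, 0 higher and 6 not called. The median log2 fold change was -0.95 (-1.23 to -0.28 over the scalings), or -0.17 with probes under the limit at their bound, beside 0 over all probes. This median was -0.04 without monolayer replicate 1 and -1.22 without replicate 2. The miR-15b and miR-16 hairpins lie 66 bases apart within the span of Smc4, at chr3:69009772-69009835 and chr3:69009902-69009996 on the plus strand, and miR-16 has another copy beside miR-15a at chr14:61631936-61631957 on the minus strand. The sequences show the seed common to all 3.
miR-15b: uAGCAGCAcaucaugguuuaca
miR-16: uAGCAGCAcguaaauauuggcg
miR-15a: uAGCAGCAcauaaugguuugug

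The other called and detected miRNAs were close to the limit. The miR-1198 probe read 39 and 22 in the monolayer cultures against 2 and 8 in the spheres, and miR-297c, from the Sfmbt2 cluster, read 31 and 41 against 10 and 0. Both were above the limit in each monolayer culture and below it in each sphere. Against the sphere limits miR-1198 was at least 1.68-fold lower and miR-297c at least 2.04-fold lower. The limma adjusted p of their fitted differences was 0.00887 and 0.028. The call of miR-297c was lost without each monolayer replicate in turn, without sphere replicate 2 and without scaling, that of miR-1198 without sphere replicate 1, and both with the mRNA controls. Of the 33 probes of Sfmbt2 cluster repeats, miR-297c was the 1 called, with 32 not called and a median of 0. The other detected members had log2 fold changes of 1.07 for miR-669f and 0.04 for miR-466g. That of the joint miR-466a-3p and miR-466b-3-3p probe was 1.23. The remaining calls were under the limit in a replicate of both sides. These were miR-190b, miR-361 and miR-712 among the 3 higher, and miR-26a, miR-107, miR-328, miR-486, miR-879 and miR-883a-3p among the 6 lower. The most abundant of them, miR-361, read 5 and -5 in the monolayer cultures against 26 and 10 in the spheres.

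The let-7 family made up the largest single block of miRNA signal. The 9 family probes summed to 16252 and 9014 in the monolayer cultures and 9603 and 8728 in the spheres, or 34.9%, 34.1%, 24.8% and 26.1% of the mouse miRNA sum. The share was thus lower in both spheres than in both monolayer cultures. None of the 9 was called, and 4 were more than 1 higher on the log2 scale in monolayer replicate 1 than in replicate 2. All 9 were detected. Beside a median log2 fold change of 0.15 for all detected miRNAs (-0.10 to 0.83 under the other scalings), that of the family was 0.30 (0.04 to 1.0 over the scalings). Without monolayer replicate 1 the median was 0.58 and without replicate 2 it was -0.43, so its sign turned with the monolayer culture.

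Of the family, let-7b read 3660 and 3172 in the monolayer cultures against 1751 and 1593 in the spheres, and let-7c read 4484 and 2924 against 2490 and 2470. The let-7b values did not overlap and the monolayer replicates were close, and the difference of -0.80 on the log2 scale (standard error 0.26, limma adjusted p = 0.104) did not pass. It was called lower with the miRNA sum as scaling, with the higher background, with detected miRNAs alone, and with cultures and tumors alone. In contrast, let-7d read 1704, 533, 1230 and 992, and let-7f read 809, 108, 327 and 356, with both spheres between the monolayer cultures. For let-7d the log2 fold change was 0.44 (standard error 0.36), and it changed sign with the monolayer replicate left out. The family members shown share a seed and differ in the bases that follow it.
let-7b: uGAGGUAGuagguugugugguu
let-7c: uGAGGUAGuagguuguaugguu
let-7d: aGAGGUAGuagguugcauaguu
let-7f: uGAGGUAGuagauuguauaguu

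The miR-125 and miR-99 families sit in clusters with let-7 genes. They included the pair whose balance differed most between the sides among the family or cluster pairs compared, all above the limit in every culture. The miR-125b-5p probe read 2204 and 908 in the monolayer cultures against 3071 and 2755 in the spheres. The miR-125a-5p probe, for a miRNA with the same seed, read 4033 and 1524 against 1090 and 915. The first was higher in both spheres and the second lower in both, but neither was called (log2 fold change 1.26 and -1.09, standard error 0.50 and 0.38, limma adjusted p = 0.199 and 0.133). With the miRNA sum as scaling, with detected miRNAs alone and without monolayer replicate 2, miR-125a-5p and also miR-99b were called lower. Their ratio within a lane, which needs no scaling, was 0.55 and 0.60 in the monolayer cultures and 2.82 and 3.01 in the spheres. In this ratio the monolayer replicates were alike, and the sphere mean was 5.10 times the monolayer mean (exact two-sided permutation p = 0.333, the smallest possible). Of the other members, miR-99a read 806, 110, 299 and 229, and miR-99b read 701, 216, 168 and 165. The 5 probes of these families had 0 calls and a median log2 fold change of 0.04, which ran from -0.22 to 0.73 over the scalings. It was 1.27 without monolayer replicate 1 and -1.59 without replicate 2. The sequences show how far the pair is alike.
miR-125b-5p: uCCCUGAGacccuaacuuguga
miR-125a-5p: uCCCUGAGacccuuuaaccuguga

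The miR-125a sequence lies at chr17:17830817-17830840 within Spaca6, and miR-125b has copies at chr9:41581940-41581961 within Mir100hg and at chr16:77646279-77646300, all on the plus strand. Such ratios were computed for 46 pairs of miRNAs of a shared family or cluster, all above the limit in all 4 cultures, with the 4 probes that carry positive control signal left out. The sides did not overlap for 24 pairs, or 52.2%, beside 49.4% of the 1891 pairs among the 62 miRNAs that this leaves. These shares were close, the pairs share members, and the difference was not tested. The miR-125b to miR-125a ratio had the widest gap of the 46 and was chosen for description after this was seen. A further pair was miR-23a over miR-27a, with ratios of 1.41 and 1.01 in the monolayer cultures against 3.48 and 3.22 in the spheres, although their hairpins lie 79 bases apart on chromosome 8.

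The miR-23, miR-24 and miR-27 probes, from clusters active in many attached and vascular cell types, had 0 of 5 called. The miR-23a probe read 888, 158, 640 and 470, and miR-27a read 628, 157, 184 and 146. The spheres lay near monolayer replicate 1 for miR-23a and near monolayer replicate 2 for miR-27a. Their log2 fold changes were 0.77 and -0.71, and miR-23a was called higher without monolayer replicate 1 and miR-27a lower without replicate 2. The median of the list was -0.48 (-0.36 with bounds), which ran from -0.74 to 0.19 over the scalings. It was 0.75 without monolayer replicate 1 and -1.17 without replicate 2.

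**Figure D3:**
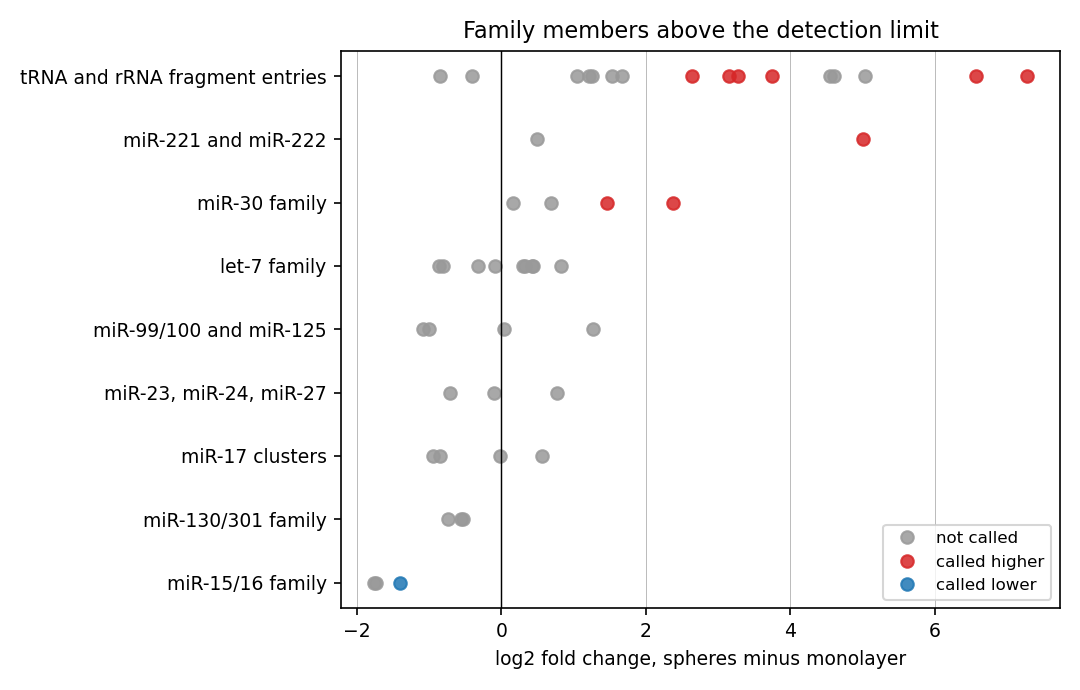
Log2 fold change of spheres minus monolayer from limma for each detected member of 9 lists, colored by call; each point is a probe, and values for miR-2132, miR-2137 and miR-222 are fitted values of probes under the limit in the monolayer. The fragment entries lie mostly to the right with 6 called, and the let-7, miR-125, miR-27 and miR-17 lists spread to both sides of 0 with no call.

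The miR-17 clusters, which promote proliferation, had 0 of 11 probes called and a median of 0, or -0.21 without monolayer replicate 2. The joint probe of miR-17 and miR-106a read 522, 65, 92 and 83, and that of miR-20a and miR-20b read 574, 25, 63 and 45. The miR-25 probe read 1004, 259, 741 and 566. The highest value of each was that of monolayer replicate 1 and the lowest that of monolayer replicate 2, with the spheres between them. The joint probes, like miR-130a, were called lower without monolayer replicate 2. The 3 detected members of the miR-130 and miR-301 family included miR-130a with 256, 23, 50 and 40, and its 4 probes had 0 calls and a median of -0.54 (-0.51 with bounds, -0.80 to 0.06 over the scalings, -0.19 without monolayer replicate 1).

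Several miRNAs named in textbooks for tumor growth and metastasis followed the same order. The oncogenic miR-21 read 215 in monolayer replicate 1, 5 in monolayer replicate 2, and 128 and 118 in the spheres. The values of miR-22 were 2392, 360, 624 and 524, and those of miR-9 were 692, 174, 334 and 278. In all 3 the spheres lay between the monolayer cultures, so the direction depended on which monolayer culture was taken. Without monolayer replicate 1, miR-21 was called higher (limma adjusted p = 6.29e-05) against a single culture under its limit, so no fold is given, and with both it was not called (adjusted p = 0.284). An exception was miR-31, with 59 and 45 in the monolayer cultures against 118 and 129 in the spheres, where replicates of each side were close (log2 fold change 1.47, standard error 0.48, limma adjusted p = 0.101, not called). Of the 8 detected members of the list, both spheres lay between the monolayer cultures for 4. Over its 11 probes, both spheres lay above both monolayer cultures in scaled value for 1 and below for 3. Over all probes tested these shares were 8.58% and 14.6%. The list had 0 of 11 probes called and a median of -0.27 (-0.10 with bounds, -0.53 to 0.41 over the scalings). This median was 0.08 without monolayer replicate 1 and -0.76 without replicate 2.

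The miR-29 family, which targets collagen mRNAs, was represented by miR-29a, with 1056 and 161 in the monolayer cultures against 966 and 809 in the spheres. The spheres were near monolayer replicate 1, and the log2 fold change of 1.32 was not called (standard error 0.52, limma adjusted p = 0.190), but was 2.48 and called without monolayer replicate 1 (adjusted p = 0.00108) and 0.16 and not called without replicate 2. Its list had 0 of 3 called and a median of 1.32, which was 2.48 and -0.56 without these replicates in turn. The median was 0.83 to 1.76 over the scalings, 0.30 with a pseudocount of 10 and 0 with the higher background. In the miR-183 cluster, expressed in sensory cells and many carcinomas, miR-183 read 140, 12, 64 and 61 and miR-96 read 66, 0, 36 and 16, with 0 of 3 called and a median of 0.81, which was 2.36 and -1.02 without monolayer replicate 1 and 2 in turn. Both were called higher without monolayer replicate 1, against a single culture under its limit.

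Markers of pluripotent cells gave no signal of note in either form of culture. Of 16 probes for the miR-290 and miR-302 clusters and miR-367, 14 could be tested, 0 were called, the median log2 fold change was 0, and the summed values were 53, 51, 58 and 18. The single detected member, miR-290-5p, read 23, 18, 22 and 11, near the limit of each lane. The miR-200 family with miR-203 and miR-205 had 0 of 7 called and a median of -0.30 (-0.28 with bounds, -0.36 to 0 with a culture left out), and its detected member miR-203 read 22 and 20 in the monolayer cultures against 10 and 4 in the spheres, under the limit in both spheres (at least 1.21-fold lower, not called). The hypoxia-induced miR-210 read 23, 25, 22 and 14 and was not called (log2 fold change -0.22, -0.48 to 0.45 over the scalings, 0.03 without monolayer replicate 2).

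The remaining lists held little above the limit. Of 57 probes of the imprinted Dlk1-Dio3 cluster, 56 were tested, 5 were detected and 0 were called, with a median of 0. The miR-376a probe, with values of 52, 105, 52 and 59, was the highest that carried no control signal. The largest log2 fold change of the named members was that of miR-540-3p, 3.53, which was not called. None of the miR-148 and miR-152 probes was detected or called, and their median was -1.87 between values under the limit in a replicate of each side, and between -3.14 and 0 with a culture left out. Of the 4 miR-26 and miR-101 probes none was detected, miR-26a was called lower while under the limit, and the median was -0.31 (-0.70 to 0.15 over the scalings, -1.24 without monolayer replicate 2). For miR-103 and miR-107, miR-103 read 81, 33, 51 and 31 and was not called, and miR-107 was among the calls under the limit, with a median of -1.28 for the pair (-1.92 to -0.61 over the scalings, -1.87 to -0.68 with a culture left out). The miR-34 and miR-449 family, which is induced by p53, had 0 of 7 called and a median of 0.11. This median was 0 to 0.74 over the scalings and 0 to 0.28 with a culture left out. The family cannot be read through miR-34c. According to the probe ids, the probes for let-7a, miR-34c, miR-155 and miR-543 take up part of the signal of the highest positive control. For miR-34c this part was 1157, 1052, 1093 and 986, beside values of 937, 828, 1001 and 1024. It was larger than the value in every culture but sphere replicate 2, where it was slightly smaller. For miR-155 it left 223, 226, 248 and 241, which differed little between the cultures, and for let-7a it was a small part of the value.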

How the data were processed

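The authors deposited nCounter values that were read here as background-subtracted counts, since they are whole numbers that fall below 0 and the negative controls average about 0 in each lane; the background step is not stated. Partek is named in the submitters' notes. Because these values are not raw counts, the limma test planned for that case was used. Negative values were set to 0, lanes were scaled by TMM factors (trims of 30% and 5%), and log2(value + 1) was fitted for 7 groups with limma 3.58.1 (trend) in R 4.3.3, with Benjamini-Hochberg adjustment over 583 probes. Python 3.11.15 with numpy 2.4.6 and pandas 2.3.3 prepared the values. Bounds (at least N-fold) put a side that was under the limit at the limit of its lanes. An adjusted p given with a bound is that of the fitted difference and does not test the bound. The procedure was tested on simulated data, where it recovered changes of well-detected probes, missed many changes of weaker ones, and called unchanged probes more often than the nominal rate. Simulated replicates of a group varied around a common mean, with the same spread in all groups. They did not stand apart as the monolayer replicates did, so the recovery does not carry over to these cultures.

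Named miRNAs were those detected and called, the 10 most abundant, and in each list the called and up to 4 most abundant detected members. Of the last, some that were not called are not described above. Their log2 fold changes were -0.10 for miR-23b, -0.02 for miR-93, -0.53 for miR-130b and -0.74 for miR-301a. They were 0.07 for miR-34b-3p and -0.11 for miR-154. Markers of cell types and calls under the limit were named in addition. Apart from these, let-7f, miR-31, miR-1959 and miR-2133 fall outside this rule and were chosen after their values were seen. Members and lists were chosen with earlier results of these data known. Arms of older probe names were assigned by standard nomenclature, and 24 of 33 names looked up matched RefSeq (GRCm38.p6). Genes are said to span a miRNA by coordinates, without regard to strand. The tumor and tissue samples entered the fit. They were set beside the cultures only for lane sums, numbers of detected miRNAs and the miR-142 probes.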

Additional observations from a re-analysis of the deposited data

Results flagged for a closer look

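Probes for viral miRNAs, which were not part of the comparison, gave values above the detection limit in at least 1 culture for 7 of 33 probes. The highest were a murine gammaherpesvirus probe with 34 in monolayer replicate 1 and a murine cytomegalovirus probe with 33 in monolayer replicate 2. No viral probe was above the limit in more than 2 of the 4 cultures. Groups of 2 cultures are too small for a test of single outlying samples.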

How the results depend on the processing

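Of the 17 called and detected miRNAs, each kept its direction in all 16 alternatives. Many of these could not turn it. Changes of filter, block or samples of the other groups leave the fold change as it is. Leaving out a culture cannot turn sides that do not overlap. The 17 calls higher and 9 lower became 9 and 0 with the mRNA controls as scaling, 7 and 1 without scaling, and 0 and 0 with the 4 cultures alone in limma, where 20 mouse miRNAs had an unadjusted p under 0.05. The lower calls became 19 with the 100 most abundant miRNAs, 22 with the miRNA sum and 6 with the higher background subtracted. With the replicate number as a block in the fit of all samples, 20 were called higher and 16 lower. The numbers did not pair the cultures (correlation of deviations 0.01 over the detected miRNAs), so this is no paired analysis. Leaving out a culture, its lone partner being assumed to vary like the other groups, gave 9 to 27 higher and 3 to 26 lower. The lowest were without sphere replicate 2 (9 and 3) and sphere replicate 1 (9 and 6), the highest without monolayer replicate 1 (27 and 7) and replicate 2 (22 and 26), and 12 and 13 of the 17 higher calls but 5 and 3 of the 9 lower calls were kept without monolayer replicate 1 and 2. Without sphere replicate 1 and 2, 9 and 8 of the higher and 1 and 3 of the lower calls were kept. A pseudocount of 10, TMM factors of the 4 lanes, tumor and culture samples alone, a filter on detected miRNAs and, chosen after seeing the data, removal of the control signal from 4 probes kept both counts within 1.5 times. Of the 17 higher and 9 lower calls, 15 and 5 were kept with the pseudocount, 14 and 3 with the filter, 15 and 7 with tumors and cultures, and 12 and 3 with the higher background. The causes were not tested. Scaling by the mRNA controls moved the median log2 fold change of the detected miRNAs from 0.15 to 0.83. Values below about 20 counts are near the limit and carry little precision.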
